A study of Mus musculus with 8 samples.

Results

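The genes described here encode the fibrous and sheet-forming proteins of the kidney's extracellular matrix. They were taken from the gene table of 54532 genes as the protein-coding genes whose symbols name a collagen or a laminin chain, together with Nid1, Nid2, Hspg2, Agrn, Fn1, Fbn1 and Sparc. The symbols alone chose them, and 62 genes were found. Of these, 23 were assigned here to basement membranes, 34 to the interstitial matrix, and 5 to membrane-spanning or anchoring collagens. Some genes could be placed otherwise, such as Col19a1, counted as interstitial though also found at basement membrane zones. RNA sequencing of polyadenylated transcripts was done on kidney of ICR mice, an outbred stock, after BPA (bisphenol A, a plastics monomer that binds estrogen receptors weakly) in 4 libraries and after vehicle in 4. The dose, route, duration, age and vehicle agent were not stated in the labels, and nothing says that the libraries come from separate animals. The p-values below therefore reflect no more than the variation among these libraries, and that variation may be technical.

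Basement membranes are thin sheets under epithelia and endothelia, built from a laminin network and a collagen IV network that nidogens and heparan sulfate proteoglycans link. In the kidney, the chains encoded by Col4a1 and Col4a2 occur in most basement membranes, whereas those encoded by Col4a3, Col4a4 and Col4a5 form the network of the mature glomerular filter, whose loss causes Alport syndrome in humans. The interstitial matrix between tubules is laid down mainly by fibroblasts and pericytes and contains fibrillar collagens, collagen VI, fibronectin and fibrillin microfibrils.

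The collagen IV genes lie in head-to-head pairs, and promoter windows at their starts are shown because the levels of partners are compared below. In the deposited table (GRCm38), Col4a1 starts at chr8:11312826 on the minus strand and Col4a2 at chr8:11312805 on the plus strand, so that the annotated genes overlap by 22 bases. Col4a4, on the minus strand, and Col4a3, on the plus strand, start on chromosome 1 at 82586849 and 82586921, with 71 bases between the starts. Between the starts of Col4a6 and Col4a5 on chromosome X lie 1308 bases. The promoter windows below run from 250 bases before to 50 bases after a gene's start and come from RefSeq on GRCm38.p6, where 45 of the 62 genes had one. Col4a3 had none, but the window of Col4a4 covers its start. The windows of Col4a6 and Col4a5 do not meet, so most of the stretch between these genes is not shown. Capitals mark matches, on either strand, to the TATA box letters (TATAAA), to the motif of the NF-Y factor (CCAAT) and to the core of Sp1 sites (GGGCGG). No match overlaps another. The windows are chr8:11312777-11313076 (minus strand) for Col4a1, chr8:11312555-11312854 (plus) for Col4a2, chr1:82586800-82587099 (minus) for Col4a4, chrX:141475169-141475468 (plus) for Col4a5, chrX:141474027-141474326 (minus) for Col4a6 and chr13:13437352-13437651 (plus) for Nid1. Nid1 is shown as the basement membrane gene with the smallest p below.
Col4a1: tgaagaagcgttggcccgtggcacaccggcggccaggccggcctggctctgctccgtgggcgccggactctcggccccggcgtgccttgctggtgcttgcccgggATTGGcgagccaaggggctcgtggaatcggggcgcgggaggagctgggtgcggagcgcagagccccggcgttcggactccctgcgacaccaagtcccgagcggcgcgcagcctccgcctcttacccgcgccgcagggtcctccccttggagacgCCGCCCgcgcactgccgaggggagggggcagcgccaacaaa
Col4a2: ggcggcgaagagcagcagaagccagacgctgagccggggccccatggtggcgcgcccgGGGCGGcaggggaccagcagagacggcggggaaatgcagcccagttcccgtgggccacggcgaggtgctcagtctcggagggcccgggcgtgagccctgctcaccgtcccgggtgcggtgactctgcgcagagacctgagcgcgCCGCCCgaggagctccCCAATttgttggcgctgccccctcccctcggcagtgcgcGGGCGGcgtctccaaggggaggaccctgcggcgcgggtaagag
Col4a4: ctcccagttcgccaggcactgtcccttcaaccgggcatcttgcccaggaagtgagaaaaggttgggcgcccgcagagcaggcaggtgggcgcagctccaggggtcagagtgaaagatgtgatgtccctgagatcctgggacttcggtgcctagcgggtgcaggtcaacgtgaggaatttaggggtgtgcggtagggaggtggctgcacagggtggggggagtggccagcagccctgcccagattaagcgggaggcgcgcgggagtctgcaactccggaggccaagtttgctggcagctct
Col4a5: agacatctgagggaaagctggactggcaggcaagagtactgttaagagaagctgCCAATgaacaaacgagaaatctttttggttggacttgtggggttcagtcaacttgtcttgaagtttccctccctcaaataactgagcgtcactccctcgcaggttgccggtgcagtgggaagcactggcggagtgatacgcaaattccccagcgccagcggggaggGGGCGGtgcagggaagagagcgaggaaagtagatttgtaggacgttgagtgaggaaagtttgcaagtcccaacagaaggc
Col4a6: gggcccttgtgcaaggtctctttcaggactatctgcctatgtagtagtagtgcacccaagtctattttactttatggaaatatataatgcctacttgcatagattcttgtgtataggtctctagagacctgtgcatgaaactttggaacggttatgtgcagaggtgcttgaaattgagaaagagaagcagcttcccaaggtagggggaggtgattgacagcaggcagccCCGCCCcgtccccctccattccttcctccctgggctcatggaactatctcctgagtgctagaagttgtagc
Nid1: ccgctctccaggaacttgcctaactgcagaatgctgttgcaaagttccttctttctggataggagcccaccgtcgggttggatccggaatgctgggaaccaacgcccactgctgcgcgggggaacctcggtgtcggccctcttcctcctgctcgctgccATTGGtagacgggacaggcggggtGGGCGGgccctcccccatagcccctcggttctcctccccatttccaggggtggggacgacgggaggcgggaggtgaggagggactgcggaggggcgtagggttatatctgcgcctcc

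The windows of Col4a1 and Col4a2 share 78 bases, from 11312777 to 11312854 of chromosome 8, read on opposite strands, and 1 GGGCGG match lies in that stretch. The GC content of the windows was 74% for Col4a1 and 73.7% for Col4a2, 63.3% for Col4a4, 52.7% for Col4a5 and 48.3% for Col4a6, against a median of 52.7% over 32851 windows. TATAAA was found in none of the 6 windows and in 13.6% of all windows. GGGCGG was found in 16 of the 24 tested matrix genes with a window and in 35.7% of all windows, and CCAAT in 7 of 24 and in 37.4%. These sets are unlike, since the matrix count takes a single window per tested gene, whereas all windows include untested genes. The shares therefore give no measure of enrichment. A match describes letters only and is not a binding site.

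The deposited FPKM values (fragments or reads scaled to gene length and library size) gave back whole reads, 15944081 to 17351540 of them per library. Markers of kidney were present in every library: 6 proximal tubule genes summed to 31520 to 63750 FPKM, nearly all of it Kap, and markers of podocytes, endothelium and the distal nephron were also found. Kap was lowest in BPA replicate 4, at 29690 FPKM against 45460 to 61940 FPKM elsewhere. Aqp1 of the same list was also lowest there, at 188.0 FPKM against 239.3 to 328.7 FPKM elsewhere. Lrp2, Slc5a12 and Slc5a2 were highest in that library, and Slc34a1 lay within the range of the others. BPA replicate 4 had 17174 genes above 0 against 19090 to 20845 in the other libraries. Vehicle replicate 4 carried skeletal muscle transcripts, with a summed level of 224.9 FPKM over 6 markers against at most 1.17 FPKM elsewhere. It also held the highest sum of 6 fat markers, 253.1 FPKM, followed by vehicle replicates 2 (72.6 FPKM) and 3 (27.8 FPKM), against at most 14.1 FPKM in the other libraries. Vehicle replicate 4 had the lowest sum of distal nephron and collecting duct markers, 232.2 FPKM against 409.3 to 770.7 FPKM elsewhere. The largest part of that sum was Umod, at 116.7 FPKM there against 259.7 to 517.8 FPKM elsewhere. Slc12a1 was also lowest there, at 16.1 FPKM against 52.2 to 91.1 FPKM elsewhere. By contrast, Aqp2 and Atp6v1g3 were lowest in BPA replicate 4, and Slc12a3 in BPA replicate 2. Of the immune markers, Ptprc (2.61 FPKM) and Cd3e (0.903 FPKM) were highest in vehicle replicate 4, while the sum of that list lay within the range of the others. Results are therefore also given without both replicates 4, which leaves the fat transcripts of vehicle replicates 2 and 3 in. Of the 62 matrix genes, 34 reached a mean of 0.5 FPKM over the 8 libraries and were tested: 19 of the basement membrane, 15 of the interstitial matrix and none of the membrane-spanning or anchoring collagens.

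The matrix genes together took 0.141 to 0.236% of the reads. Summed over the 23 basement membrane genes, levels were 200.9, 201.6, 164.2 and 124.3 FPKM in vehicle replicates 1 to 4 and 164.6, 191.7, 164.9 and 209.9 FPKM in BPA. The 34 interstitial genes summed to 68.1, 61.1, 34.8 and 35.3 FPKM in vehicle and to 67.8, 71.3, 44.5 and 57.3 FPKM in BPA. Basement membrane transcripts thus exceeded interstitial ones in all 8 libraries, and in the interstitial sum vehicle replicates 1 and 2 were each above replicates 3 and 4. Sparc alone gave 23.1, 26.4, 9.06 and 9.79 FPKM of that sum in vehicle replicates 1 to 4.

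**Figure D1:**
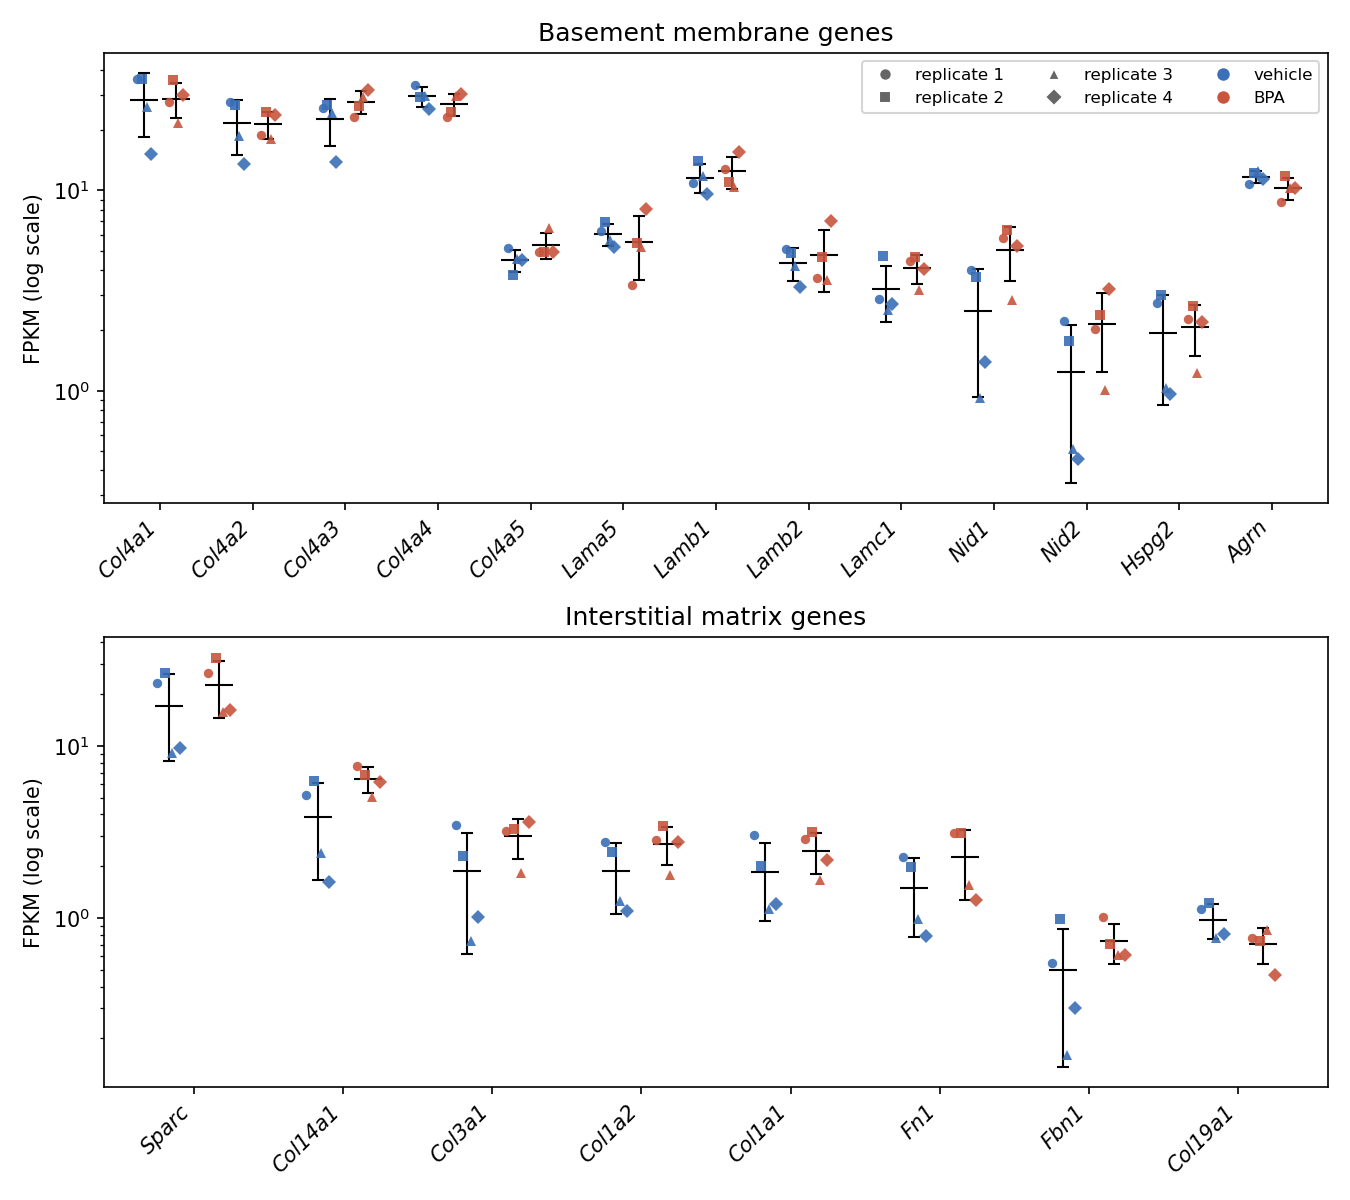
FPKM (log axis) of named basement membrane genes (top) and interstitial genes (bottom) in each vehicle (blue) and BPA (red) library, with shapes for replicates and black bars for the mean and SD of 4 libraries. The groups overlap for every gene, and for Nid1, Nid2, Hspg2, Sparc and Col3a1 vehicle replicates 3 and 4 lie below replicates 1 and 2.

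By mean level, 4 of the 6 collagen IV genes were the highest of the matrix genes. Col4a1, of the widespread network, was at 36.2, 36.1, 26.0 and 15.2 FPKM in vehicle and at 27.7, 35.5, 21.6 and 29.9 FPKM in BPA. Its partner Col4a2 was at 27.7, 26.6, 18.7 and 13.6 FPKM in vehicle and at 19.0, 24.8, 18.1 and 23.8 FPKM in BPA. Both were lowest in vehicle replicate 4, and the BPA values lay within the vehicle range (log2 change, BPA minus vehicle on the scale of log2(FPKM + 1), of 0.07, SE 0.274, limma adjusted p = 0.933 for Col4a1 and 0.02, SE 0.223, adjusted p = 0.972 for Col4a2). Without both replicates 4 the log2 change was -0.22 for each of them.

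Of the glomerular network, Col4a3 and Col4a4 were at similar levels. Col4a3 was at 25.8, 26.8, 24.4 and 13.8 FPKM in vehicle and at 23.2, 26.3, 29.3 and 31.7 FPKM after BPA (log2 change 0.30, SE 0.208, limma adjusted p = 0.573). Col4a4 was at 33.7, 29.3, 29.5 and 25.4 FPKM in vehicle and at 23.2, 24.7, 29.5 and 30.4 FPKM after BPA (log2 change -0.13, SE 0.129, adjusted p = 0.696). Vehicle replicate 4 was the lowest vehicle library for both genes, more so for Col4a3. Col4a5, which completes that network, was several times lower, at 5.14, 3.77, 4.55 and 4.51 FPKM in vehicle and at 4.92, 4.93, 6.52 and 4.94 FPKM after BPA (log2 change 0.20, SE 0.122, adjusted p = 0.533). Col4a6, the chain of the capsule around the glomerulus, was at 0.0361 to 0.190 FPKM, which rests on 5 to 27 reads per library, and was too low to test. By mean over the 8 libraries, the order was Col4a1 (28.5 FPKM), Col4a4 (28.2), Col4a3 (25.2), Col4a2 (21.5), Col4a5 (4.91) and Col4a6 (0.101 FPKM). The first 4 overlapped each other, whereas Col4a5 was below each of them, and Col4a6 below Col4a5, in all 8 libraries.

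Partners from a shared start region were compared as ratios of FPKM within a library. Col4a1 was 1.31, 1.36, 1.39 and 1.12 times Col4a2 in vehicle and 1.46, 1.43, 1.196 and 1.26 times in BPA. The ratio thus stayed between 1.12 and 1.46 while Col4a1 itself ran from 15.2 to 36.2 FPKM. Col4a3 was 0.767, 0.914, 0.827 and 0.543 times Col4a4 in vehicle (mean 0.763 ± 0.159, SD, n = 4) and 1.0, 1.06, 0.994 and 1.04 times in BPA (1.02 ± 0.0335). All 4 BPA libraries were above all 4 vehicle libraries, by 1.34 times in the means, and the order held in the libraries other than both replicates 4. Of 10 ratios between matrix genes, 1 had groups that did not overlap, and it was picked out once its values were known, so it is a description with no test. Among 496 pairs of tested protein-coding neighbours that start head to head within 1000 bases, the ratio did not overlap between the groups in 5.24%. Each value rests on 2388 to 5214 reads of Col4a3 and 4275 to 6542 reads of Col4a4. Transcript GC was 50.4% for Col4a3 and 51.1% for Col4a4. Col4a5 was 48.8 times Col4a6 in the mean over the libraries, although this pair is also head to head.

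**Figure D2:**
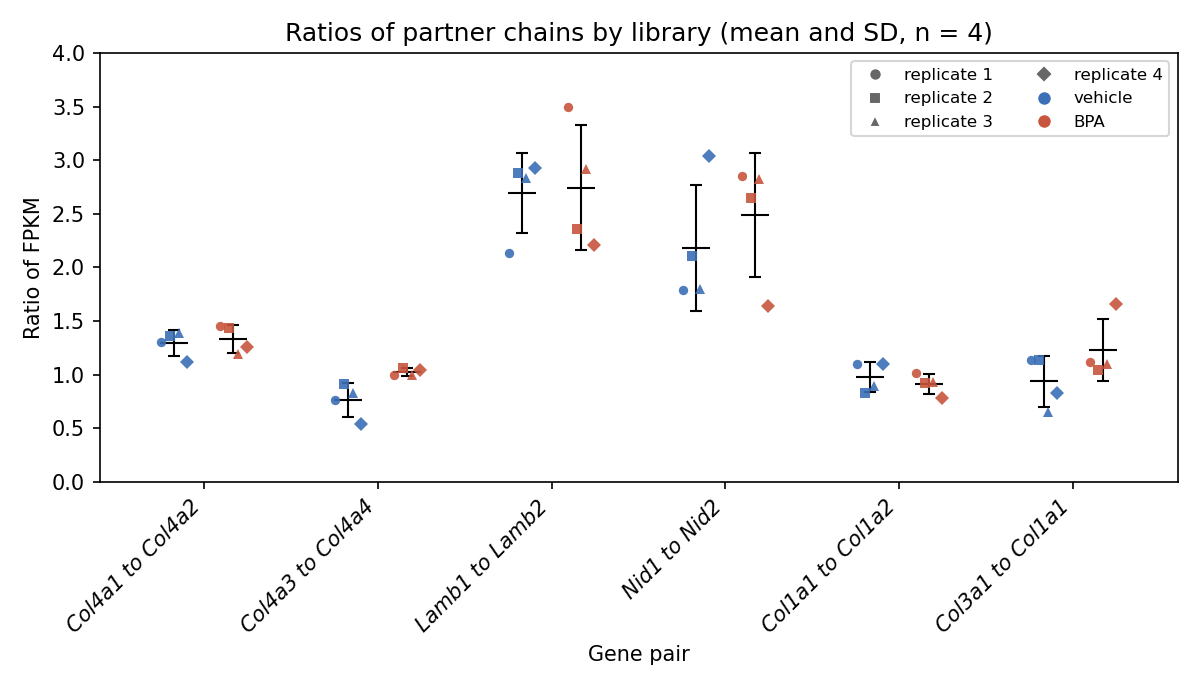
Ratio of FPKM of 2 genes within each library, for 6 gene pairs (linear axis from 0), in vehicle (blue) and BPA (red), with shapes for replicates and black bars for the mean and SD of 4 libraries. Col4a3 to Col4a4 is 0.543 to 0.914 in vehicle and 0.994 to 1.06 in BPA, and the groups overlap in the other 5 pairs.

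Laminins are trimers of an alpha, a beta and a gamma chain. Lama5, the alpha chain of the mature glomerular and many tubular membranes, was at 6.25, 6.96, 5.67 and 5.24 FPKM in vehicle and at 3.36, 5.43, 5.23 and 8.09 FPKM in BPA, so that BPA held both the lowest and the highest value (log2 change -0.15, SE 0.205, limma adjusted p = 0.783). Lamb1, the beta chain of developing glomeruli and of tubules, was at 10.9, 14.1, 11.8 and 9.60 FPKM in vehicle and at 12.7, 10.99, 10.5 and 15.6 FPKM after BPA (log2 change 0.09, SE 0.153, adjusted p = 0.825). Lamb2, the beta chain of the mature glomerular filter, was at 5.09, 4.89, 4.18 and 3.28 FPKM in vehicle and at 3.65, 4.65, 3.58 and 7.06 FPKM after BPA (log2 change 0.07, SE 0.200, adjusted p = 0.897). Lamb1 was above Lamb2 in all 8 libraries, by 2.14 to 3.49 times. BPA replicate 4 held the highest value of Lama5, Lamb1 and Lamb2.

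Lamc1, the gamma chain of nearly all kidney laminins, was at 2.87, 4.69, 2.54 and 2.72 FPKM in vehicle and at 4.45, 4.67, 3.17 and 4.04 FPKM in BPA, with vehicle replicate 2 as high as the highest BPA library (log2 change 0.29, SE 0.172, limma adjusted p = 0.527). Lama1, a tubular alpha chain, and Lama3, an alpha chain of epithelial laminin, were at 3.53 and 3.13 FPKM in the mean over the libraries, and Lamc3 at 1.26 FPKM. Lama2, Lama4 and Lamb3, at 0.463, 0.219 and 0.294 FPKM, fell under the mean needed for a test. Lama2, the alpha chain of muscle membranes, was at 0.528, 0.538, 0.134 and 0.226 FPKM in vehicle, where replicate 4 is the library with muscle transcripts.

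Of the linker genes, Nid1 had the widest range between libraries in FPKM, while Nid2 varied slightly more in proportion. Nid1, which encodes nidogen-1, was at 3.99, 3.71, 0.921 and 1.39 FPKM in vehicle and at 5.79, 6.31, 2.85 and 5.26 FPKM in BPA. Vehicle replicates 3 and 4 were under all other libraries, while BPA replicate 3 was under vehicle replicates 1 and 2. The log2 change was 0.87 (SE 0.344), with an unadjusted limma p of 0.0332 and an adjusted p of 0.429 over all genes, so Nid1 was not called. Its relative Nid2 was at 2.23, 1.76, 0.512 and 0.456 FPKM in vehicle and at 2.03, 2.38, 1.01 and 3.22 FPKM in BPA, with the same libraries low in vehicle (log2 change 0.54, SE 0.319, adjusted p = 0.529). Hspg2, which encodes the proteoglycan perlecan, was at 2.74, 3.003, 1.03 and 0.966 FPKM in vehicle and at 2.28, 2.64, 1.23 and 2.19 FPKM after BPA (log2 change 0.13, SE 0.275, adjusted p = 0.867).

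Agrn did not share that order. This gene encodes agrin, the main heparan sulfate proteoglycan of the glomerular filter, and was at 10.8, 12.2, 12.5 and 11.4 FPKM in vehicle and at 8.76, 11.9, 10.3 and 10.2 FPKM in BPA. In BPA, 3 values lay below every vehicle value and 1 within their range (log2 change -0.18, SE 0.108, limma adjusted p = 0.536). The collagens Col18a1 and Col15a1, which carry glycosaminoglycan chains and lie at basement membranes, were at 6.70 to 17.1 and 0.354 to 2.14 FPKM over the libraries, each lowest in vehicle replicate 4.

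Sparc had the highest mean level of the interstitial genes (19.9 FPKM), followed by Col6a6 (8.97 FPKM), Col14a1 (5.16 FPKM) and Col27a1 (3.71 FPKM). Sparc, a secreted glycoprotein that binds collagens, was at 23.1, 26.4, 9.06 and 9.79 FPKM in vehicle and at 26.4, 32.7, 15.7 and 16.2 FPKM in BPA. Replicates 1 and 2 were above replicates 3 and 4 in both groups (log2 change 0.47, SE 0.384, limma adjusted p = 0.636). Col14a1, a collagen that decorates fibrils, was at 5.22, 6.26, 2.40 and 1.63 FPKM in vehicle and at 7.67, 6.81, 5.05 and 6.19 FPKM in BPA. Only vehicle replicates 3 and 4 were under all BPA libraries. Its log2 change was 0.72 (SE 0.313), with an unadjusted p of 0.0481 and an adjusted p of 0.453.

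The chains of the main fibrils were near 2 FPKM. Col1a1 was at 3.04, 2.02, 1.12 and 1.21 FPKM in vehicle and at 2.86, 3.15, 1.67 and 2.18 FPKM after BPA (log2 change 0.31, SE 0.231, limma adjusted p = 0.606). Col1a2, whose chain joins that of Col1a1 in collagen I, was at 2.75, 2.43, 1.25 and 1.10 FPKM in vehicle and at 2.82, 3.41, 1.78 and 2.79 FPKM after BPA (log2 change 0.39, SE 0.226, adjusted p = 0.524). Their ratio ran from 0.781 to 1.10. Col3a1, of collagen III, was at 3.45, 2.29, 0.737 and 1.01 FPKM in vehicle and at 3.21, 3.29, 1.83 and 3.60 FPKM after BPA (log2 change 0.55, SE 0.303, adjusted p = 0.507). In these 3 genes vehicle replicates 3 and 4 were the lowest of the 8 libraries.

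Fn1, which encodes fibronectin, was at 2.26, 1.97, 0.984 and 0.784 FPKM in vehicle and at 3.13, 3.11, 1.55 and 1.28 FPKM in BPA, with replicates 1 and 2 above 3 and 4 in each group (log2 change 0.38, SE 0.271, limma adjusted p = 0.589). Fbn1, which encodes fibrillin-1, was at 0.549, 0.983, 0.160 and 0.299 FPKM in vehicle and at 1.02, 0.703, 0.608 and 0.609 FPKM after BPA (log2 change 0.24, SE 0.185, adjusted p = 0.624). Col19a1, a collagen of basement membrane zones and fibril surfaces, was at 1.13, 1.22, 0.769 and 0.803 FPKM in vehicle and at 0.761, 0.740, 0.856 and 0.466 FPKM in BPA, and was 1 of 3 interstitial genes with a negative log2 change (-0.21, SE 0.135, adjusted p = 0.547). Among collagen VI genes, Col6a6 was the highest, at 4.98 to 13.4 FPKM, against 1.24 to 2.38 FPKM for Col6a1, 0.313 to 1.39 FPKM for Col6a3 and 0.326 to 0.927 FPKM for Col6a2. Col6a6 was above Col6a1 in all 8 libraries. Col27a1, a fibrillar collagen, was at 1.70 to 4.70 FPKM, and Col5a1 and Col8a1 were at means of 0.652 and 0.707 FPKM.

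The 28 remaining genes were under the mean needed for a test, and 25 of them had fewer than 100 reads in every library. The others were Lama2, with 34 to 200 reads per library, Col12a1, with 37 to 150, and Col26a1, with 33 to 106. The 19 untested interstitial genes had means from 0 to 0.418 FPKM, the highest being Col26a1. Among cartilage collagens, Col2a1 had at most 3 reads in a library, Col9a1 at most 1, Col9a2 at most 4, Col9a3 at most 2, Col10a1 at most 2 and Col11a1 at most 5, whereas Col11a2 had 3 to 18 reads per library. Col22a1, a collagen of tissue junctions, had 0 reads over the 8 libraries, which allows up to 0.00240 FPKM at a floor of 3 reads. The 5 membrane-spanning and anchoring collagens ranged in their means from 0.00125 FPKM for Col17a1, of hemidesmosomes, to 0.211 FPKM for Col23a1. Intervals and floors cover counting error only.

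In the comparison of BPA with vehicle, none of the 34 tested matrix genes was called by limma (adjusted p under 0.05 over all genes), against 0.00748% of 13376 genes (1 gene). At an unadjusted p under 0.05, limma gave 1 higher basement membrane gene (Nid1) and 1 higher interstitial gene (Col14a1), against 4.18% of all tested genes, and none lower, against 6.83%. Limma-voom on the recovered reads also called none of them and had the same counts at that p. Among basement membrane genes 16 of 19 had a log2 change above 0 and among interstitial genes 12 of 15, against 48% of all genes. The median log2 change was 0.15 for the basement membrane and 0.22 for the interstitial genes, against -0.01 over all genes. The groups overlapped in all 34 genes, whereas they did not overlap in 7.89% of all tested genes.

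These medians rested on part of the libraries. Without both replicates 4 they were -0.06 and 0.13. Leaving out BPA replicate 4 alone gave 0.04 for the basement membrane genes, and leaving out vehicle replicate 4 alone gave 0.09 for them and 0.10 for the interstitial genes. The latter stood at 0.12 without vehicle replicate 3, and the former at 0.10. Within replicates 1 and 2 they were -0.09 for basement membrane and 0.06 for interstitial genes, and within replicates 3 and 4 they were 0.35 and 0.39. Their spread between replicates, as the pooled SD of a library's median deviation, was 0.202 and 0.281. The median transcript GC was 54.5% for the basement membrane and 53.5% for the interstitial genes, against 49.7% over all tested genes. Deviations of genes correlated with GC from 0.130 to 0.253 in the vehicle libraries and from -0.287 to -0.0531 in the BPA libraries (Spearman, across genes, which are not independent replicates). After correction for GC the medians were 0.26 and 0.31. The interstitial median was 0.46 with a pseudocount of 0.1 and 0.47 with limma-voom. At a mean of at least 5 FPKM only Sparc, Col6a6 and Col14a1 were left, and the median of 0.47 is the value of Sparc. Without a filter, which lets in genes near 0 FPKM, the median was 0.01.

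**Figure D3:**
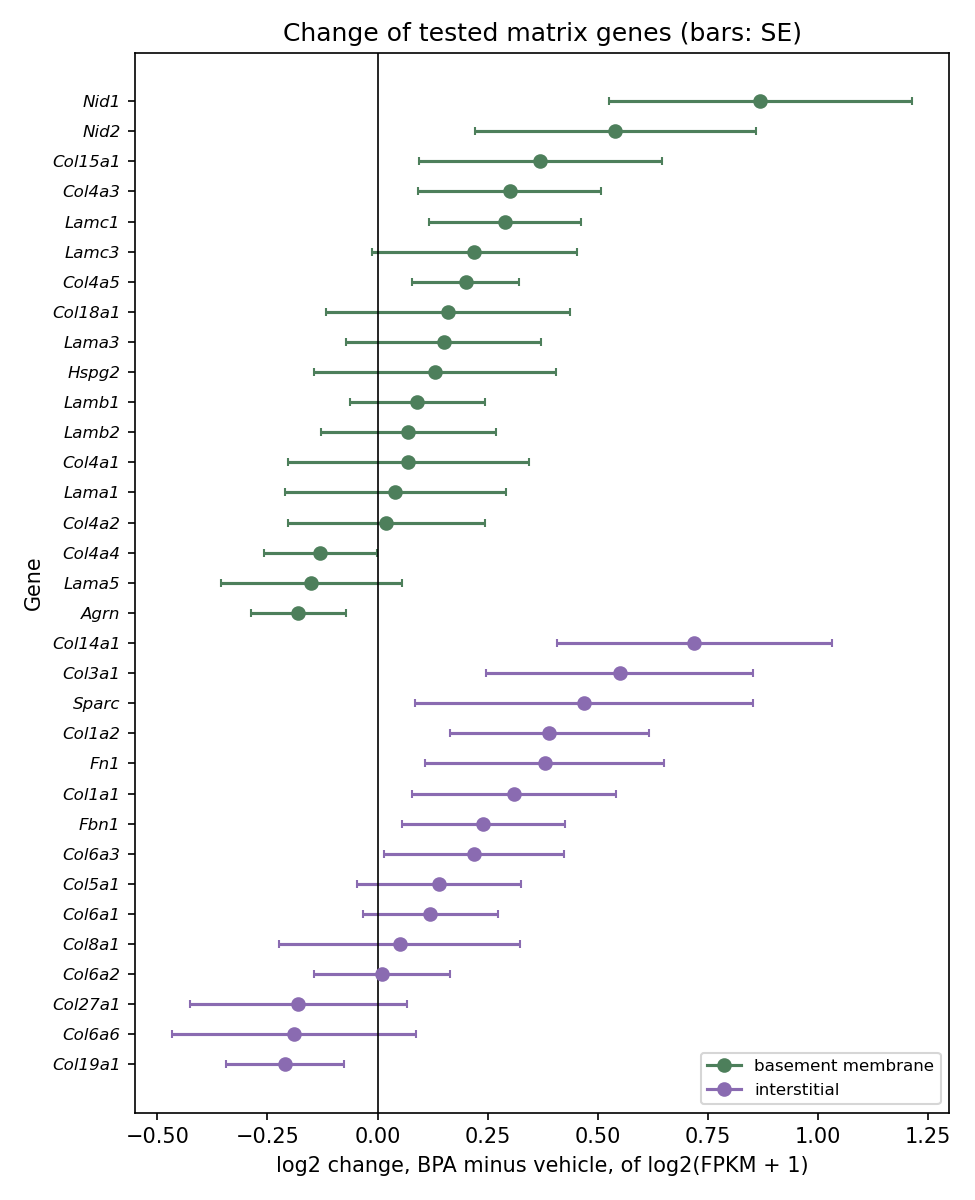
Log2 change (BPA minus vehicle, on the log2(FPKM + 1) scale) of 33 of the 34 tested matrix genes, with the SE from limma as bars, in order of the change within basement membrane (green) and interstitial genes (purple). Of the points, 27 lie above 0, Nid1 has the largest change (0.87), and no gene was called.

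Libraries of the vehicle group differed among themselves in many matrix genes. Vehicle replicates 1 and 2 were both above replicates 3 and 4 in 12 of 19 basement membrane and 13 of 15 interstitial genes, against 23.2% of all tested genes. The opposite order was found in 2 and 1 of them, against 26.6%. In BPA, replicates 1 and 2 were both above replicates 3 and 4 in 4 of 19 and 7 of 15 genes, against 23.5% of all genes, and both below in 5 and 1, against 23.1%. Genes without the first order in vehicle included Col4a4, Col4a5, Lamb1, Agrn, Lama1 and Lama3 in the basement membrane, and Col6a6 and Col27a1 in the interstitial genes. The replicate numbers are not groups of the study and were looked at because earlier results on these data had shown them to differ in clock genes, so these counts are a description with no test.

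Endothelial and podocyte markers had the same order in vehicle. The 8 endothelial markers summed to 60.4, 68.8, 20.7 and 18.9 FPKM in vehicle and to 67.4, 79.5, 35.2 and 43.1 FPKM in BPA, and in vehicle all 8 were higher in replicates 1 and 2; all 8 had a log2 change above 0, against 48% of all genes, and 1 was higher at an unadjusted limma p under 0.05, against 4.18%. The 7 podocyte markers summed to 54.8, 54.5, 21.0 and 17.9 FPKM in vehicle and to 48.8, 62.7, 44.0 and 66.3 FPKM in BPA, and 6 of 7 had that order, while 7 of 7 had a log2 change above 0. The 4 smooth muscle markers summed to 12.3 to 24.0 FPKM in vehicle and 11.4 to 19.3 FPKM in BPA, and both tested members had that order. The 6 mesangial and pericyte markers summed to 46.7, 59.9, 49.7 and 19.6 FPKM in vehicle and 37.7 to 64.9 FPKM in BPA, and 3 of 6 had it (Itga8, Notch3 and Pdgfrb). Ren1 alone gave 31.0, 38.4, 36.5 and 10.3 FPKM of the sum in vehicle replicates 1 to 4. Pdgfrb was at 7.05, 6.21, 2.135 and 1.64 FPKM in the same libraries. The 6 fibroblast markers summed to 6.94 to 9.43 FPKM in vehicle and 6.14 to 11.2 FPKM in BPA. Of the 5 tested, 2 had the order (Pdgfra and Pi16) and 1 the reverse (Lum). Over all tested genes the order was found in 23.2% and the reverse in 26.6%. None of 6 proximal tubule, 5 distal nephron and collecting duct and 4 immune markers tested had the order, and 2 proximal tubule markers had the reverse. The 5 tested fat markers and 5 tested skeletal muscle markers also lacked the order, and 2 muscle markers had the reverse. No defining marker of these lists was at 0 in all libraries. In whole kidney, fewer cells of a type and less RNA per cell cannot be told apart, and the part of cell composition in the matrix values was not tested.

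**Figure D4:**
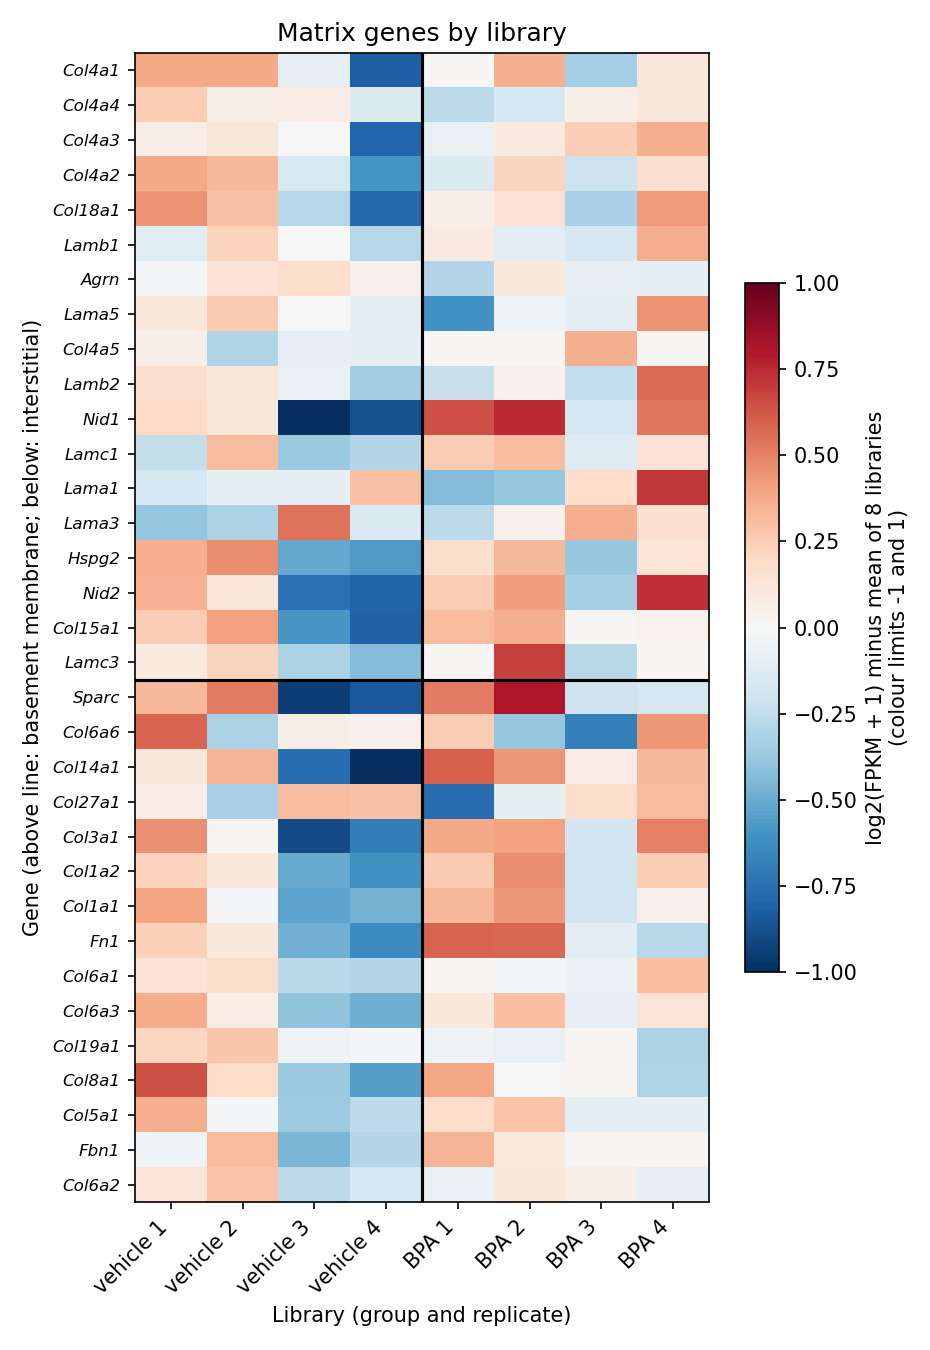
Deviation of log2(FPKM + 1) from the mean of the 8 libraries (colour, limits -1 and 1) for 33 of the 34 tested matrix genes (rows, basement membrane above the line and interstitial below) in each library (columns, vehicle left and BPA right). Blue, below the mean, fills most interstitial rows in vehicle replicates 3 and 4, where 13 of 15 genes are under both other vehicle libraries, and is absent from Agrn in these libraries.

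Genes that build, cut, bind and regulate the matrix were compared as lists, and none of their members was called by limma. The groups did not overlap in 2 of 24 collagen biosynthesis genes and 1 of 12 matrix turnover genes, against 7.89% of all tested genes. The same was found in 1 of 14 matrix receptors and 1 of 15 TGF-beta signalling genes. The genes named below were picked for the smallest p in their lists, so a lack of overlap among them is a description with no test. Collagen biosynthesis genes had 15 higher and 9 lower of 24 tested, with a median log2 change of 0.04. At an unadjusted limma p under 0.05, 1 was higher, against 4.18% of all genes, and 2 were lower, against 6.83%. Crtap, a subunit of the complex that hydroxylates prolines of fibrillar collagens, was at 43.5, 44.8, 42.6 and 48.2 FPKM in vehicle and at 28.9, 36.3, 35.5 and 31.2 FPKM in BPA. The groups did not overlap (log2 change -0.43, SE 0.108, unadjusted p = 0.00313, adjusted p = 0.335). P3h2, a prolyl hydroxylase that acts on collagen IV, was at 10.6, 11.6, 11.4 and 8.09 FPKM in vehicle and at 12.3, 13.2, 14.3 and 29.0 FPKM in BPA, also without overlap, with BPA replicate 4 far above the rest (log2 change 0.60, SE 0.254, limma adjusted p = 0.444). The log2 change was 0.33 without that library and 0.22 without both replicates 4. P4hb, which forms the prolyl 4-hydroxylase with its alpha chains, had means of 361 ± 38.8 FPKM for vehicle against 294 ± 21.6 FPKM for BPA (SD, n = 4; log2 change -0.29, limma adjusted p = 0.453).

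Matrix turnover genes had 10 higher and 2 lower of 12 tested (median log2 change 0.24; 48% of all genes were higher). At an unadjusted limma p under 0.05, 2 were higher and none lower, against 4.18% and 6.83% of all genes. Adamts5, a protease that cuts proteoglycans, was at 1.98, 1.34, 0.749 and 0.539 FPKM in vehicle and at 3.03, 3.05, 2.07 and 6.37 FPKM in BPA. All BPA libraries were above all vehicle libraries (log2 change 1.07, SE 0.296, unadjusted p = 0.00570, adjusted p = 0.365), and vehicle replicates 3 and 4 were again the lowest. Reck, a membrane-bound inhibitor of matrix metalloproteinases, was at 1.03 ± 0.166 and 1.72 ± 0.441 FPKM (log2 change 0.41, limma adjusted p = 0.387). Ctsk, a lysosomal collagen-cutting protease, was at 0.517 ± 0.368 and 1.15 ± 0.815 FPKM (log2 change 0.46, limma adjusted p = 0.539), with as few as 2 reads in a library.

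Matrix receptors had 10 higher and 4 lower of 14 tested (median log2 change 0.10), with 3 higher, against 4.18% of all genes, and none lower, against 6.83%, at that p. The 3 are integrin alpha chains. Itga8, the nephronectin receptor chain of mesangial cells, was at 1.32, 1.21, 0.4999 and 0.328 FPKM in vehicle and at 1.74, 2.53, 1.24 and 2.08 FPKM after BPA (log2 change 0.68, SE 0.221, limma adjusted p = 0.374). Itga1, a collagen receptor chain, was at 4.71 ± 0.368 and 7.17 ± 2.03 FPKM without overlap of the groups (log2 change 0.49, limma adjusted p = 0.387). Its BPA values were 6.59, 6.645, 5.36 and 10.1 FPKM, highest in replicate 4. The log2 change of Itga1 ran from 0.33 to 0.6 when 1 library was left out. Itgav, a chain of receptors for fibronectin and vitronectin, was at 18.1 ± 2.28 and 24.0 ± 4.72 FPKM (log2 change 0.38, limma adjusted p = 0.440).

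TGF-beta signalling, a main inducer of matrix genes, had 8 members higher and 7 lower of 15 tested (median log2 change 0.06), of which 1 higher and 2 lower had an unadjusted limma p under 0.05, against 4.18% and 6.83% of all genes. Skil, a corepressor of SMAD proteins, was at 4.98, 4.84, 4.02 and 4.01 FPKM in vehicle and at 3.89, 2.75, 2.85 and 3.10 FPKM in BPA, without overlap (log2 change -0.40, SE 0.121, adjusted p = 0.374). The inhibitory Smad7 was at 5.27 ± 0.959 and 3.97 ± 0.530 FPKM (log2 change -0.33, limma adjusted p = 0.446). Ltbp1, which binds latent TGF-beta in the matrix, was at 0.512 ± 0.165 and 0.901 ± 0.209 FPKM (log2 change 0.33, limma adjusted p = 0.440).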

How the data were processed

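The deposited table holds FPKM for 54532 genes in 8 libraries of polyadenylated kidney RNA, 4 BPA and 4 vehicle, which the authors computed. DESeq2 1.20.0 and GRCm38 are named in the submitters' processing notes without a role. Which aligner and counter made the table is not given in the sources used here. The columns marked C were read as vehicle replicates, since the labels have no further group. Multiplying FPKM by gene length gave whole reads (tolerance 0.01) for 100% of values up to 20 reads, and thus 15944081 to 17351540 reads.

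Limma 3.58.1 (R 4.3.3) was fitted to log2(FPKM + 1), with a trended, robust variance and no covariate, over the 13376 genes with a mean of at least 0.5 FPKM. Calls needed a Benjamini-Hochberg adjusted p under 0.05 over all of these. The scale understates changes of low genes. The fit was also run on simulated data with known changes, drawn for each gene separately and without the differences between replicates described above. That run therefore gives no measure of power or error for these libraries. Means are given ± SD (n = 4). GC came from the longest GENCODE M21 transcript. Members, lists, tests and the rule for named genes (fixed chains, the 4 tested members of each class and the 3 of each other list with the smallest p) were chosen with earlier results of these data known. Alternatives were other pseudocounts, filters and scalings, limma-voom on recovered reads, GC correction, a replicate block and libraries left out. Tables and plots used pandas 2.3.3 and matplotlib 3.10.9 under Python 3.11.15. Reads were not analysed here, and 1 tested basement membrane gene enters the counts but is not reported here by itself.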

Additional observations from a re-analysis of the deposited data

Results flagged for a closer look

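In groups of 4, a library was flagged when its gap to the nearest other library, as a share of the group's range, passed Dixon's critical value, which chance gives in about 1 of 20 groups; 108 groups were examined and 9 were flagged. BPA replicate 3 had the highest Col4a5, 6.52 FPKM against 4.92 to 4.94 FPKM in the other BPA libraries. Vehicle replicate 2 had the highest Lamc1, 4.69 FPKM against 2.54 to 2.87 FPKM. BPA replicate 4 had the highest P3h2, 29.0 FPKM against 12.3 to 14.3 FPKM, the highest ratio of Col3a1 to Col1a1, 1.66 against 1.04 to 1.12, and the lowest ratio of Nid1 to Nid2, 1.64 against 2.65 to 2.85. In the same library the 6 proximal tubule markers summed to 31520 FPKM against 59550 to 63750 FPKM. That gap lay almost wholly in Kap (29690 against 58190 to 61940 FPKM). Aqp1 was also lowest in that library, whereas Lrp2, Slc5a12 and Slc5a2 were highest and Slc34a1 was within the range of the others. Vehicle replicate 1 had the lowest ratio of Lamb1 to Lamb2, 2.14 against 2.83 to 2.93. BPA replicate 3 had the lowest Smad7, 3.18 FPKM against 4.14 to 4.32 FPKM. The skeletal muscle markers summed to 224.9 FPKM in vehicle replicate 4 against 0.309 to 0.832 FPKM in the other vehicle libraries.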

How the results depend on the processing

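Over 33 named genes and all settings tried, 581 of 608 log2 changes kept their direction, 27 in 8 genes turned and none passed the adjusted threshold. The replicate block cannot alter a log2 change in this balanced design, so its directions were fixed in advance. Within replicates 1 and 2 or 3 and 4 alone no p was computed, so none could pass there. Leaving out 1 library moved Col4a1 between -0.19 and 0.21, Col4a2 between -0.17 and 0.15, Lamb1 between -0.02 and 0.18, Lamb2 between -0.10 and 0.17, Hspg2 between -0.04 and 0.30 and Lama5 between -0.32 and 0.03. Without both replicates 4 the values were -0.22 for Col4a1 and Col4a2, -0.10 for Lamb1, -0.21 for Lamb2 and -0.06 for Hspg2. Within replicates 1 and 2 alone they were -0.20 for Col4a1, -0.31 for Col4a2, -0.09 for Col4a3, -0.06 for Lamb1, -0.22 for Lamb2 and -0.16 for Hspg2, and within replicates 3 and 4 alone 0.12 for Col4a4 and 0.22 for Lama5. Rescaling to a common FPKM total gave -0.04 for Col4a2, and GC correction gave 0.06 for Lama5. The cause was not tested. The median log2 change of the basement membrane genes was -0.06 without both replicates 4 and -0.09 within replicates 1 and 2, and ran from 0.04 to 0.21 when 1 library was left out. That of the interstitial genes ran from 0.10 to 0.28 in the same way, and with a pseudocount of 0.1, limma-voom, a mean of at least 5 FPKM and no filter the basement membrane median was 0.21, 0.23, 0.05 and 0.13.

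Counts at an unadjusted limma p under 0.05 moved as well. Higher basement membrane genes numbered 0 at a mean of at least 5 FPKM (8 genes tested there), with a common total and without both replicates 4, and 0 to 2 when 1 library was left out: 0 without vehicle replicate 3 or 4 or BPA replicate 1, 2 or 4, and 2 without vehicle replicate 1 or 2 or BPA replicate 3. Higher interstitial genes numbered 0 without a filter, with a common total and without both replicates 4, and 0 to 4 when 1 library was left out: 0 without vehicle replicate 3 or 4 or BPA replicate 1, 2 or 4, 4 without vehicle replicate 1 and 2 without vehicle replicate 2. Limma called 0 to 4 of all genes when 1 library was left out: 0 when it was replicate 1 or 3 of vehicle or replicate 2 of BPA (1167, 1099 and 1685 at an unadjusted p under 0.05), 2 when it was replicate 2 of vehicle or replicate 4 of BPA, 3 when it was replicate 4 of vehicle or replicate 1 of BPA, and 4 when it was BPA replicate 3. With all libraries, limma-voom called 0 (1507 at an unadjusted p under 0.05). With the replicate number as a block, limma called 0 genes (1376 at an unadjusted p under 0.05) and gave 4 higher interstitial genes at that p (Col14a1, Col3a1, Fn1 and Sparc). The numbers were not taken as pairs, since deviations of same-numbered libraries correlated at 0.137, 0.0190, 0.138 and -0.0329, and not every library correlated best with its own number.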
